A study of Mus musculus with 24 samples.

Results

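Su was compared with imatinib in irradiated mouse lung on 8 of the 24 single-colour arrays of the series, 4 arrays for each agent. The groups were lungs given irradiation and Imatinib (IR+Imatinib), irradiation and Su (IR+Su), irradiation, Ly and Imatinib (IR+Ly+Imatinib), and irradiation, Ly and Su (IR+Ly+Su), with 2 replicates in each. All 8 lungs were irradiated and all were taken 24 days after irradiation, so that this comparison holds no untreated lung. The members were chosen by their sample titles and not by any measured value. Ly and Su are abbreviations in the sample labels, which do not spell them out. Mouse strain, age, radiation dose and drug dose are not given in the sources used here.

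Per its title, the series asks whether blocking TGF-beta and PDGF signals together limits lung fibrosis after radiation. Imatinib inhibits the ABL, KIT and PDGF receptor kinases. Ionising radiation damages DNA and activates p53, which induces inhibitors of the cell cycle and genes of cell death. In the weeks that follow, lung tissue recruits inflammatory cells and fibroblasts lay down collagen and other matrix, a response that TGF-beta and PDGF are known to drive. Each array measured a whole piece of lung, in which fewer cells of a type and less RNA per cell cannot be told apart.

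Both agents shared each slide. IR+Imatinib and IR+Su lay on slide 5, and IR+Ly+Imatinib and IR+Ly+Su on slide 6, so that the presence of Ly equals the slide and drops out of a difference taken within slides. On both slides the Imatinib arrays lay in the first 2 positions and the Su arrays in the last 2, as on the unirradiated slides. Agent and position on the slide therefore cannot be told apart. The series' design calls the replicates biological, with 2 in each group, and the labels do not name the animal behind each. The share of spots well above background was 65.0% to 78.5%, and the number of arrays limits the precision. Replicates differed by a median absolute log2 value of 0.114 for IR+Su and 0.111 for IR+Ly+Su, against 0.161 for IR+Imatinib and 0.171 for IR+Ly+Imatinib.

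Some of the 8 arrays stood apart. IR+Ly+Imatinib 1 had 330 outlier spots against 16 to 80 on the others, and its median correlation with the other 7 arrays across genes was 0.968. IR+Imatinib 2 had the next lowest, 0.978, against 0.984 to 0.986 for the remaining 6. Negative control spots had a median intensity of 2.65 to 2.95 on IR+Ly+Imatinib 2 and both IR+Ly+Su arrays, and of 6.27 to 7.84 on the other 5. None of 5 array measures separated the agents (exact permutation within slides, two-sided p of 0.278 to 0.944, adjusted p of 0.944, smallest possible p 0.0556). For 1 IR+Su array the title gives replicate 2 and another label replicate 1, and the title was followed.

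No gene passed an adjusted p of 0.05 between Su and imatinib among the 20287 tested (0%; limma, Ly as a term, Benjamini-Hochberg adjustment, lowest adjusted p 0.331). At an unadjusted p under 0.05 there were 2742 genes (13.5%), of which 1138 (5.61%) were higher with Su and 1604 (7.91%) lower. Scaling arrays to their median in place of their 75th percentile moved the share of higher genes among these from 41.5% to 58.6%, and quantile normalization moved it to 55.5%. On data simulated for this comparison the same fit called 66 of 100 genes that differed by 1 on the log2 scale and 86 of 100 that differed by 2. It also called 12 genes that did not differ. The simulated noise was independent between genes, without arrays that stood apart across many genes. The shares called therefore do not carry over to these 8 arrays. Differences below are Su minus Imatinib in log2 units ± standard error, and since none passed the adjusted threshold they describe these 8 arrays. A level is the log2 intensity minus the log2 of the array's 75th percentile, so that 0 is that percentile, and levels of different genes are not compared.

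A second measure counted genes whose 2 Su arrays lay on the same side of the 2 Imatinib arrays on both slides. This held for 1175 genes higher with Su (5.79%) and 1744 lower (8.6%). A stricter count asked that all 4 Su arrays lie on 1 side of all 4 Imatinib arrays, which held for 608 genes higher with Su (3%) and 876 lower (4.32%). The median difference over all genes was -0.02. The gene lists that lay farthest above it were markers of cardiac muscle, B cells, neutrophils and T cells, and those farthest below were mast cell, senescence and matrix genes, an order that changed with the background correction.

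**Figure D1:**
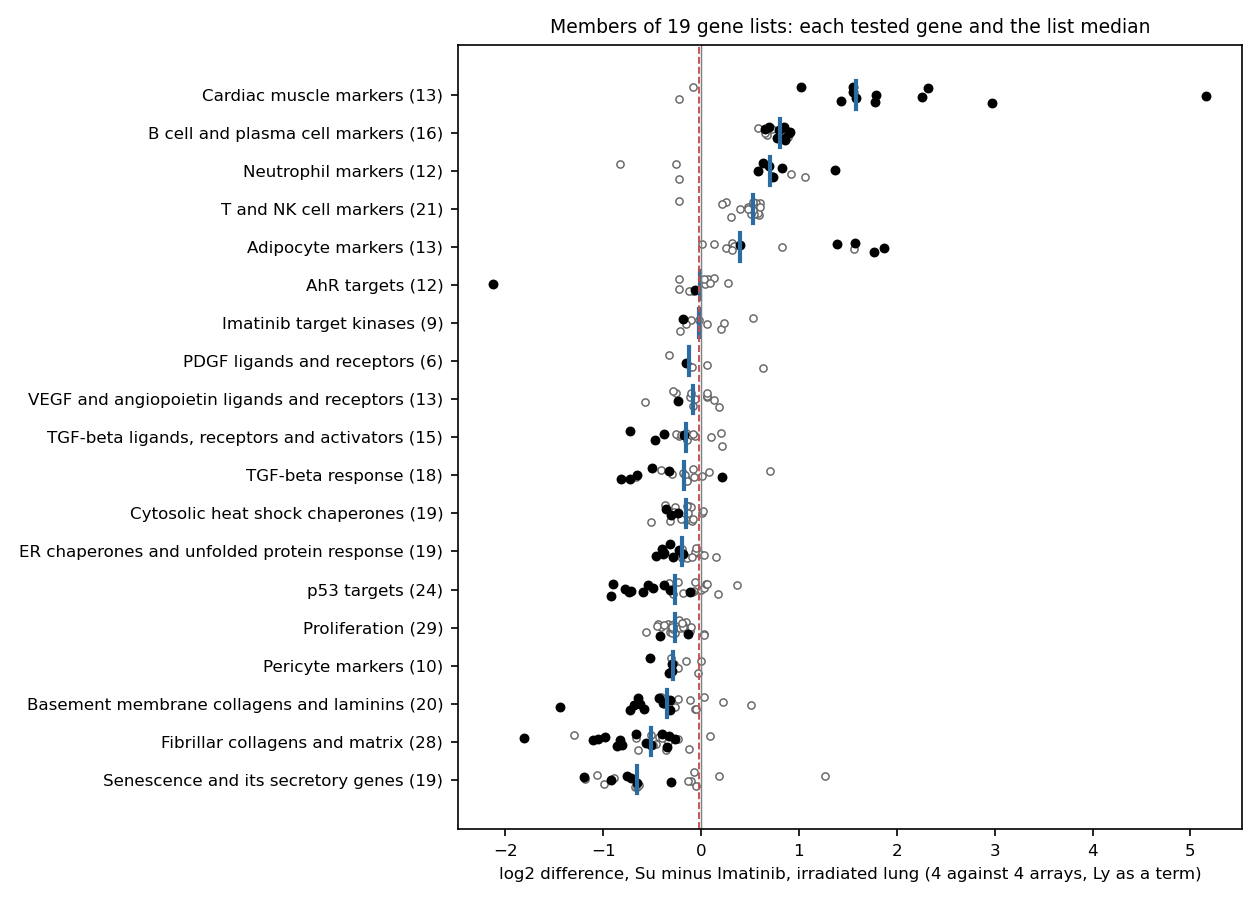
Log2 difference, Su minus Imatinib, for each tested gene (points, jittered vertically) of 19 gene lists, with the number of genes in brackets. Filled points are genes whose arrays did not overlap on both slides in the same direction, blue bars are list medians, the grey line is 0 and the dashed red line is the median of all genes; the cardiac list has the highest median, 1.58, and senescence genes the lowest shown, -0.66.

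Markers of cardiac muscle were higher on the Su arrays. The mouse pulmonary veins carry a sleeve of heart muscle cells, which express atrial contractile genes. Of 13 such genes tested, 11 did not overlap on both slides and all 11 were higher with Su, against 5.79% of all genes. The median difference over the list was 1.58. Myl7, the atrial regulatory light chain, was at 1.24 and -0.28 on the IR+Imatinib arrays and at 3.5 and 2.89 on the IR+Su arrays. On slide 6 it was at 0.32 and 2.14 with IR+Ly+Imatinib and at 2.68 and 3.36 with IR+Ly+Su. The 4 Su arrays were all above the 4 Imatinib arrays, a difference of 2.26 ± 0.53.

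Myh6, the alpha heavy chain of cardiac myosin, differed by 2.32 ± 0.46 and the cardiac troponin Tnni3 by 1.43 ± 0.27. Sarcolipin, Sln, an inhibitor of the calcium pump of atrial muscle, was well above background on 4 Su arrays but on only 2 of 4 Imatinib arrays, so that its difference of 5.16 ± 1.79 is partly taken against background, and it was 3.5 with normexp background correction. Its level was -6.28 on IR+Imatinib 2 and -7.88 on IR+Ly+Imatinib 1, against -1.38 and -0.22 on the other Imatinib arrays and 0.82 to 1.59 with Su. Actc1 and Myl2, also contractile genes of the heart, were at -0.08 and -0.22. The mean of the list was -1.71, -2.28, -3.16 and -1.16 on the 4 Imatinib arrays and -0.63 to 0.04 on the Su arrays. On other slides, untreated lungs were at 0.05 and 0.35, IR lungs without drug at -0.26 and -1.25, and IR+Ly at -1.18 and -2.51. The unirradiated groups were at -2.15 and -0.87 (Ly), -0.72 and 0.36 (Imatinib), 0.45 and 0.49 (Su), -2.74 and -0.70 (Ly+Imatinib) and -0.99 and 0.65 (Ly+Su). The list thus also varied widely between replicates of some other groups.

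Fast skeletal muscle genes split. Myh4 (3.01 ± 0.78), Myl1 (3.20 ± 1.13) and the creatine kinase Ckm (1.89 ± 0.32) were higher with Su and did not overlap on either slide. Myh2, a heavy chain of another fast fibre type, was lower (-1.11 ± 0.25), and the median of the 11 skeletal muscle genes was -0.02.

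**Figure D2:**
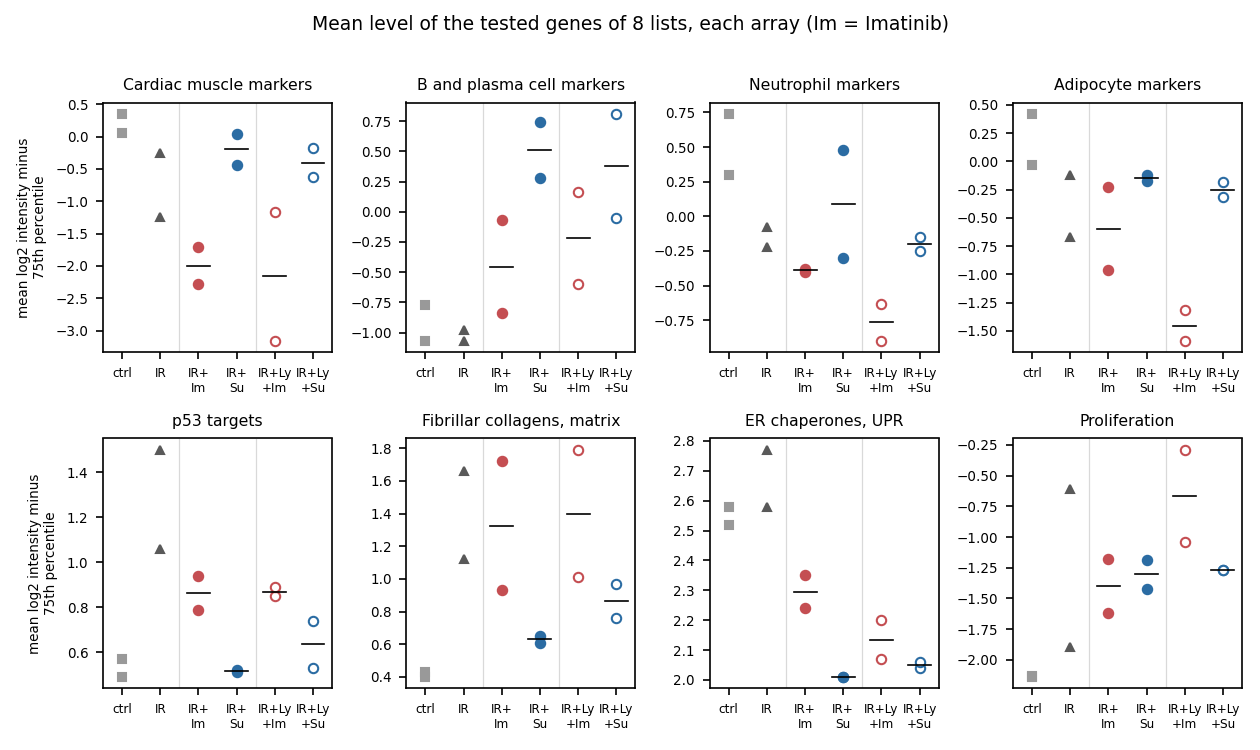
Mean level of the tested genes of 8 lists (log2 intensity minus the 75th percentile of the array, y axes not from 0) on each array of untreated lung (ctrl, squares), irradiated lung without drug (IR, triangles) and the 4 groups compared (red for Imatinib, blue for Su, open symbols with Ly, bars for means of 2 arrays). Cardiac means are -3.16 to -1.16 with Imatinib and -0.63 to 0.04 with Su; ctrl, IR and the 2 slides compared are on 4 different slides.

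Lymphocyte genes were higher with Su. All 16 tested markers of B and plasma cells had a difference above 0, 15 of them on both slides, against 24.8% of all genes, and the list median was 0.81. Without overlap on both slides 9 of 16 were higher, against 5.79% of all genes, and 0 lower. The mean of the list was -0.07 and -0.84 with IR+Imatinib and 0.28 and 0.74 with IR+Su. On slide 6 the agents overlapped, at -0.60 and 0.16 with IR+Ly+Imatinib and -0.05 and 0.81 with IR+Ly+Su. Spib, a transcription factor of B cells, was at -0.10 and -0.82 with IR+Imatinib, 0.30 and 0.58 with IR+Su, -0.75 and 0.04 with IR+Ly+Imatinib, and 0.19 and 0.72 with IR+Ly+Su, a difference of 0.86 ± 0.24. The groups did not overlap, but IR+Ly+Imatinib 2 lay close to the lowest Su array. Without IR+Imatinib 2 and IR+Ly+Imatinib 1, an alternative chosen after seeing the data, the median of the B cell list was 0.45 and that of the T and NK cell list, described next, was 0.31. The inhibitory coreceptor Cd22 differed by 0.69 ± 0.19 and Pax5, the factor that holds B cell identity, by 0.91 ± 0.29. Of 21 T and NK cell genes, 20 were above 0, 19 of them on both slides, against 24.8% of all genes, with a median of 0.53. At an unadjusted p under 0.05, 4 of 21 were higher, against 5.61% of all genes. But 0 of 21 were higher without overlap on both slides, against 5.79%, and 0 lower.

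Neutrophil genes had a median difference of 0.71 over 12 tested, with 9 above 0 and 3 below. Without overlap on both slides 6 were higher, against 5.79% of all genes, and 0 lower, against 8.6%. Camp, a granule peptide, was at -1.11 and -1.94 with IR+Imatinib and -0.92 and 0.12 with IR+Su, and at -2.89 and -1.81 against -0.48 and -0.98 on the slide with Ly, a difference of 1.37 ± 0.37. Retnlg, made by mature neutrophils, differed by 0.74 ± 0.18, and S100a8 and S100a9, which form calprotectin, by 0.69 ± 0.21 and 0.63 ± 0.20. Lcn2, on the same list and also an acute phase gene of epithelium, was 1 of the 3 that went the other way (-0.83 ± 0.32). All 13 adipocyte genes tested had a difference above 0, with a median of 0.40. Of these, 5 were higher without overlap on both slides, against 5.79% of all genes. Adipoq, the adipocyte hormone adiponectin, was at -3.74 and -4.39 on the IR+Ly+Imatinib arrays, -1.36 and -1.0 on IR+Ly+Su, -1.31 and -2.14 on IR+Imatinib, and -1.02 and -1.13 on IR+Su.

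Mast cell genes had a median of -0.91 over 7 tested, yet 0 of 7 were without overlap on both slides or under an unadjusted p of 0.05. The mast cell carboxypeptidase Cpa3 was at -2.80 and -1.97 with IR+Imatinib, -4.20 and -3.38 with IR+Su, -3.53 and -0.59 with IR+Ly+Imatinib, and -3.89 and -1.92 with IR+Ly+Su. The median of the list was -0.40 without IR+Ly+Imatinib 2, -1.53 without IR+Ly+Imatinib 1 and -0.26 with normexp background correction. Of 20 macrophage and monocyte genes, 14 had a difference below 0 and 6 above, with a median of -0.23. Without overlap on both slides 2 of 20 were lower, near the 8.6% of all genes, and 0 higher, against 5.79%. The complement components C1qa (-0.70 ± 0.23), C1qb (-0.72 ± 0.23) and C1qc (-0.69 ± 0.21) were among the lowest, while Lyz2, the lysozyme of these cells, was at 0.06 ± 0.10. Markers of alveolar type I cells, with a median of -0.09 over 11 genes, and of type II cells, with -0.12 over 13, lay close to the median of all genes, as did endothelial markers (-0.09 over 23). The mean of the type II list, which holds the surfactant genes that mark lung, was 4.41 to 4.84 on all 8 arrays.

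Targets of p53 were lower with Su than with imatinib. Of 24 tested, 11 did not overlap on both slides and were lower, against 8.6% of all genes, and 0 were higher. All 4 Su arrays were below all 4 Imatinib arrays for 7 of 24, against 4.32% of all genes: Bax, Cdkn1a, Gdf15, Zmat3, Phlda3, Eda2r and Tnfrsf10b. The median of the list was -0.26, and 11 had an unadjusted p under 0.05, against 7.91% of all genes.

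Bax, which opens the mitochondrial membrane in apoptosis, was at 1.80 and 2.05 with IR+Imatinib, 1.56 and 1.53 with IR+Su, 1.99 and 1.95 with IR+Ly+Imatinib, and 1.59 on both arrays with IR+Ly+Su. Its difference was -0.38 ± 0.07 and the same on both slides to 2 decimals. Untreated lungs were at 1.68 and 1.44 and irradiated lungs without drug at 2.40 and 2.16, on other slides. Cdkn1a, the inhibitor p21 that halts the cell cycle, was at 1.51 and 2.23, then 1.09 and 0.98, then 1.92 and 1.72, then 1.04 and 1.41 in the same order of groups, a difference of -0.72 ± 0.17 with a 95% interval of -1.14 to -0.299. The stress cytokine Gdf15 was at 0.46 and 0.81, -0.52 and -0.25, 0.50 and 1.20, and -0.25 and 0.30, a difference of -0.92 ± 0.20. Every Su array was below every Imatinib array for these 3 genes.

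Zmat3, an RNA-binding protein induced by p53, differed by -0.49 ± 0.10. Phlda3, an inhibitor of AKT, differed by -0.54 ± 0.13, Eda2r, a receptor of the TNF family, by -0.74 ± 0.19, and the death receptor Tnfrsf10b by -0.59 ± 0.14. Mdm2, the ligase that degrades p53, was at -0.07 ± 0.06, and Fas, another death receptor, at 0.00 ± 0.08. Bbc3 and Pmaip1, which encode PUMA and NOXA, were at -0.07 and 0.05. Over the list of 24, 19 differences were below 0 and 5 above, the highest at 0.37. Leaving out IR+Imatinib 2 and IR+Ly+Imatinib 1 together left the list median at -0.22. The mean of the p53 list was 0.79 to 0.94 on the Imatinib arrays and 0.51 to 0.74 on the Su arrays. On the same arrays the cardiac and B cell lists were higher with Su, as given above, and their part in the p53 difference was not tested.

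**Figure D3:**
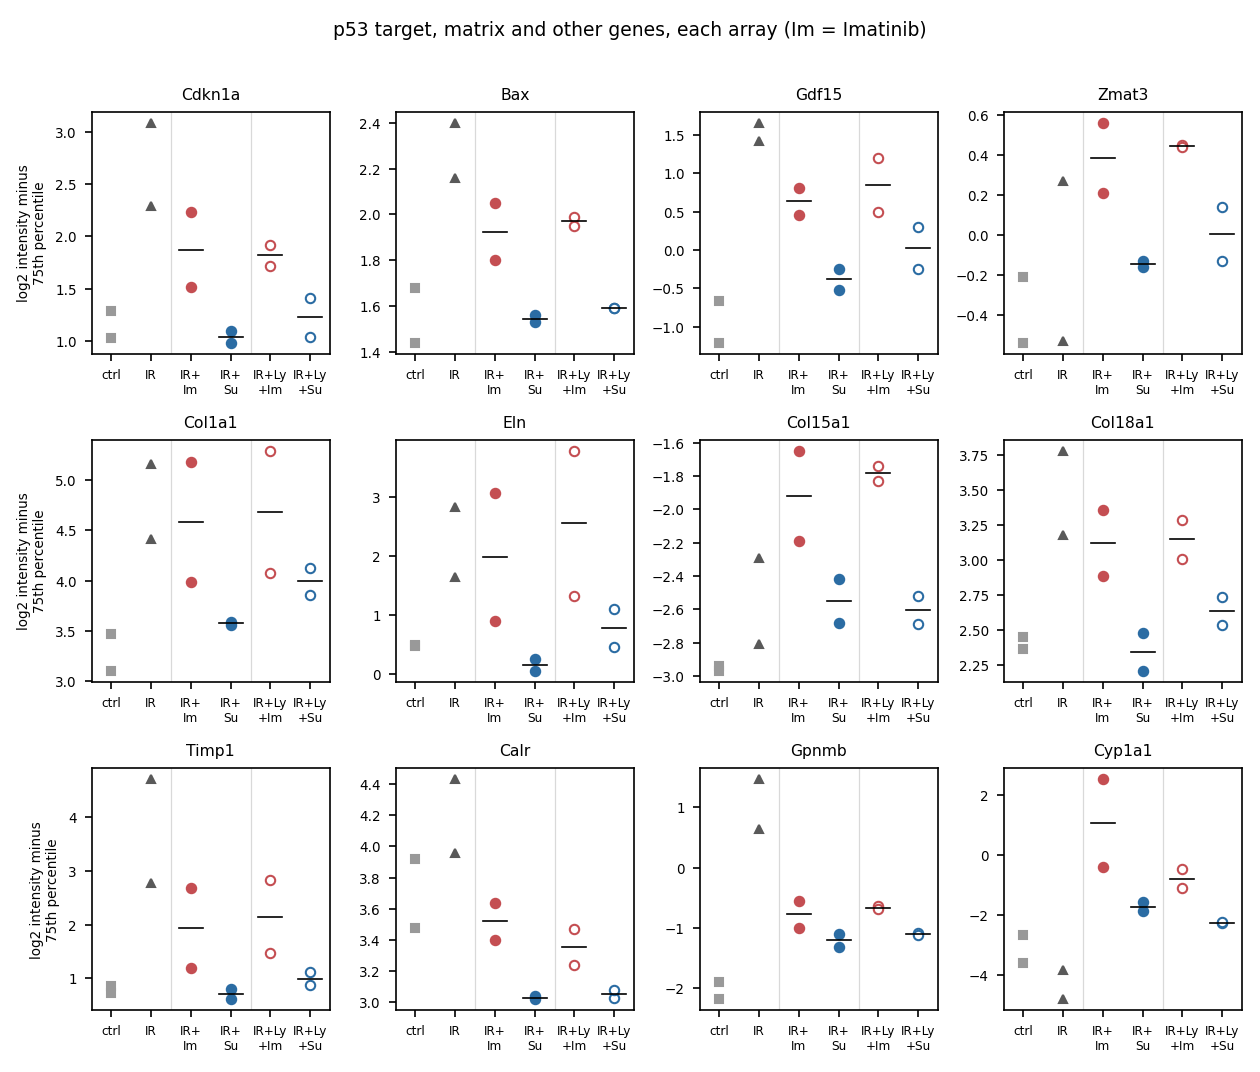
Levels (log2 intensity minus the 75th percentile of the array, y axes not from 0) of 12 genes on each array of untreated lung (ctrl, squares), irradiated lung without drug (IR, triangles) and the 4 groups compared (red for Imatinib, blue for Su, open symbols with Ly, bars for means of 2 arrays). For Bax the 4 Su arrays are at 1.53 to 1.59 and the 4 Imatinib arrays at 1.80 to 2.05; for Col1a1 IR+Imatinib 2 (5.18) and IR+Ly+Imatinib 1 (5.29) stand above the other 6.

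Genes of the extracellular matrix were lower with Su. Of 28 fibrillar collagen and matrix genes, 27 had a difference below 0, 25 of them on both slides against 33% of all genes, and the median was -0.51. On both slides 14 of 28 were lower without overlap, against 8.6% of all genes, and 0 higher. Col1a1, the main chain of type I collagen, was at 3.99 and 5.18 with IR+Imatinib, 3.59 and 3.56 with IR+Su, 5.29 and 4.08 with IR+Ly+Imatinib, and 4.13 and 3.86 with IR+Ly+Su. The groups overlapped on slide 6, and 1 Imatinib array on each slide stood high, for a difference of -0.85 ± 0.34. Col3a1, of type III collagen, differed by -0.81 ± 0.32 and the matrix protein fibronectin, Fn1, by -0.83 ± 0.27.

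Elastin, Eln, had the largest difference of the list (-1.81 ± 0.66). Its levels were 0.90 and 3.07 with IR+Imatinib, 0.25 and 0.05 with IR+Su, 3.79 and 1.33 with IR+Ly+Imatinib, and 1.11 and 0.46 with IR+Ly+Su. Postn, a matrix protein of activated fibroblasts, differed less but with less spread (-0.32 ± 0.08). Tnc, a glycoprotein of healing tissue, differed by -1.29 ± 0.48, and Lum, a small proteoglycan of collagen fibres, by 0.09 ± 0.14.

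The size of the matrix difference rested on 2 arrays. IR+Imatinib 2 and IR+Ly+Imatinib 1 had list means of 1.72 and 1.79, the other Imatinib arrays 0.93 and 1.01, and the Su arrays 0.61 to 0.97. Without these 2 arrays, an alternative chosen after seeing the data, the median of the list was -0.19 in place of -0.51. The same 2 arrays had the lowest means of the 8 for the cardiac list (-2.28 and -3.16) and for the B cell list (-0.84 and -0.60). What part this has in the matrix difference was not tested.

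Basement membrane genes were lower with Su in more even fashion. Of 20 tested, 11 were lower without overlap on both slides, against 8.6% of all genes, and 0 were higher. For 11 all 4 Su arrays were below all 4 Imatinib arrays, against 4.32% of all genes. Col15a1, a collagen of the outer basement membrane, was at -2.19 and -1.65 with IR+Imatinib, -2.68 and -2.42 with IR+Su, -1.83 and -1.74 with IR+Ly+Imatinib, and -2.52 and -2.69 with IR+Ly+Su, a difference of -0.73 ± 0.13 (-0.44 with normexp background correction). Col18a1, the precursor of endostatin, differed by -0.65 ± 0.14, the linker Nid1 by -0.58 ± 0.15 and the laminin chain Lamc1 by -0.39 ± 0.10. The laminin chains Lama5 and Lamb1 were at -0.07 and -0.05. Lama3 was at -1.52 on IR+Ly+Imatinib 1 and 1.08 to 1.39 on the other 7 arrays, which gave it a difference of 0.51 ± 0.62. Without both arrays named above the list median was -0.21 in place of -0.34.

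The list of senescence and its secretory genes had a median of -0.66 over 19 tested. It also holds genes whose proteins are not secreted, such as Cdkn1a and Lmnb1. Without overlap on both slides 6 were lower, against 8.6% of all genes, and 0 higher, against 5.79%. Timp1, an inhibitor of matrix metalloproteinases, was at 1.19 and 2.67 with IR+Imatinib, 0.61 and 0.80 with IR+Su, 2.82 and 1.47 with IR+Ly+Imatinib, and 1.11 and 0.87 with IR+Ly+Su, a difference of -1.19 ± 0.40. Every Su array was below every Imatinib array. The chemokine Ccl2 differed by -0.99 ± 0.34. Il6 differed by -1.19 ± 0.68, with levels of -6.85 to -3.02 on the Imatinib arrays that took in those on the Su arrays, -6.51 to -5.44. Igfbp3, a binding protein of insulin-like growth factors, went the other way at 1.27 ± 0.72. Cdkn1a and Gdf15 stand on this list and on that of p53. Without both arrays the median was -0.21.

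Some markers of lipid-handling macrophages were lower with Su. Gpnmb, a membrane glycoprotein of these cells, differed by -0.43 ± 0.11, nearly alike on both slides. The receptor Trem2 differed by -0.79 ± 0.22, the elastase Mmp12 by -0.89 ± 0.26 (-0.17 with normexp background correction) and osteopontin, Spp1, by -0.62 ± 0.23. Apoe and Cd9 were at -0.15 and -0.03. The median of the 15 genes was -0.22. Without overlap on both slides 4 were lower, against 8.6% of all genes, and 1, Fabp4, higher, against 5.79%.

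Chaperones of the endoplasmic reticulum were lower with Su, with a median of -0.20 (-0.32 without Ly and -0.07 with Ly). Of 19 tested, 8 were lower without overlap on both slides and below all 4 Imatinib arrays, against 8.6% and 4.32% of all genes. At an unadjusted p under 0.05, 10 of 19 were lower without Ly (9.06% of all genes) and 1 with Ly (2.88% of all genes). The test of the difference between slides had such a p for 3 of 19, against 7.8% of all genes. Calr, the chaperone calreticulin, was at 3.40 and 3.64 with IR+Imatinib, 3.04 and 3.02 with IR+Su, 3.47 and 3.24 with IR+Ly+Imatinib, and 3.03 and 3.08 with IR+Ly+Su, a difference of -0.40 ± 0.09. Hspa5, which encodes BiP, differed by -0.38 ± 0.11 and the disulfide isomerase Pdia6 by -0.32 ± 0.08. Ddit3 (-0.06) and Atf4 (-0.02), transcription factors of the stress response, and its output Trib3 (0.03) lay near 0. Of 19 cytosolic heat shock genes, 3 were lower without overlap on both slides, against 8.6% of all genes. Their median was -0.28 without Ly and -0.02 with Ly, and 14 of 19 were lower at an unadjusted p under 0.05 without Ly (9.06% of all genes) against 1 with Ly (2.88% of all genes). For 10 of 19 the test of that difference itself had an unadjusted p under 0.05, against 7.8% of all genes. Hsph1 differed by -1.01 without Ly and by -0.00 with Ly. Hspa1a, the inducible HSP70, was at 1.29 and 1.21 with IR+Imatinib against 0.54 and 0.61 with IR+Su, and at 1.09 and 0.58 against 1.13 and 0.83 with Ly. Hspa1b was not among the genes tested.

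The median over 9 genes of kinases that imatinib blocks was -0.02, and that over 6 PDGF ligands and receptors -0.12. The PDGF receptors Pdgfra and Pdgfrb were at 0.06 (95% interval -0.23 to 0.347) and -0.15 (-0.379 to 0.0822), the ligand Pdgfa at -0.09 (-0.288 to 0.109) and the receptor Kit at -0.21 (-0.689 to 0.263). Pdgfb was at -2.22 on IR+Ly+Imatinib 1 and at 0.49 to 0.81 on the other 7 arrays, and its interval of -0.946 to 2.22 was the widest. Csf1r, the receptor of macrophage growth factor, was at 2.03 on both IR+Imatinib arrays, 2.51 and 2.49 with IR+Su, 2.18 and 2.10 with IR+Ly+Imatinib, and 2.20 and 2.09 with IR+Ly+Su. Its difference was 0.47 without Ly and 0.01 with Ly, which did not pass the test of the interaction (adjusted p 0.610).

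Receptors of VEGF were at 0.06 for Kdr (-0.182 to 0.298), -0.06 for Flt1 (-0.321 to 0.191) and -0.26 for Flt4 (-0.626 to 0.108). Tgfb1 was at -0.06 (-0.259 to 0.135) and its receptor Tgfbr1 at -0.08 (-0.339 to 0.179). Tgfbr2 was at -0.17, with 4.71 to 4.96 on the Imatinib arrays and 4.58 to 4.76 on the Su arrays. Itgb6, part of an integrin that activates TGF-beta, was at 1.04 to 1.64 with Imatinib and 0.86 to 1.10 with Su (-0.38 ± 0.09). Of 18 genes that respond to TGF-beta, 5 were lower without overlap on both slides, against 8.6% of all genes. In the other direction 1, Bambi, was higher, against 5.79%. Acta2, the smooth muscle actin of myofibroblasts, was at -0.34 (-0.901 to 0.218). These intervals leave room for differences of either sign, except that of Tgfbr2 (-0.327 to -0.0189).

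Cyp1a1, the enzyme induced most strongly through the aryl hydrocarbon receptor, had the lowest difference of the panel (-2.12 ± 0.64). It was at 2.53 and -0.41 with IR+Imatinib, -1.87 and -1.57 with IR+Su, -1.10 and -0.48 with IR+Ly+Imatinib, and -2.28 and -2.22 with IR+Ly+Su. All 4 Su arrays were below all 4 Imatinib arrays, and IR+Imatinib 1 stood far above the rest. Without that array the difference was -1.4. Other targets of the same receptor did not follow: Cyp1b1 was at -0.08 ± 0.20, Tiparp at 0.09 ± 0.06, Nqo1 at -0.23 ± 0.13 and the repressor Ahrr at -0.22 ± 0.13. The median of the 12 genes was -0.02.

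Among genes with a symbol, the 10 with the smallest p were Tff2, Ramp3, A530058N18Rik, F2rl3, Mfsd2a, Rflnb, Srl, Myh8, Slc4a4 and Uxs1, each with an adjusted p of 0.331. Tff2, a trefoil peptide of mucous secretions, was at -1.92 and -1.79 with IR+Imatinib, -0.61 and -0.47 with IR+Su, -1.74 and -1.75 with IR+Ly+Imatinib, and -0.87 and -1.04 with IR+Ly+Su, a difference of 1.05 ± 0.12. Ramp3, which pairs with the receptor of adrenomedullin, was at -0.12 to 0.11 on the Imatinib arrays and -0.85 to -0.44 on the Su arrays (-0.70 ± 0.08). Mfsd2a, a lipid transporter, was at 1.73 to 2.27 with Imatinib and 0.75 to 1.10 with Su (-1.08 ± 0.15). In all 3 the agents did not overlap.

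Of the others, Myh8 (1.63 ± 0.25), a myosin heavy chain of muscle, and Srl (1.11 ± 0.16), a calcium-binding protein of the sarcoplasmic reticulum, are muscle genes and were higher with Su, as the cardiac list was. F2rl3, a thrombin receptor, was at -0.69 ± 0.10, and this turned to 0.28 under another background correction. Rflnb was at -0.55 ± 0.08, Uxs1, which makes the UDP-xylose of proteoglycan chains, at -0.60 ± 0.10 and the bicarbonate transporter Slc4a4 at 0.69 ± 0.11. A530058N18Rik was at 1.99 ± 0.28, with levels of -7.79 to -5.10, near the floor of these arrays, and at 0.95 with normexp background correction, under which Uxs1 was at -0.33.

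Presence of Ly was examined next. Without Ly, 2 genes passed (0.00986%), both lower with Su: Olfr225, an odorant receptor gene, and the transcript ENSMUST00000088923 (lowest adjusted p 0.0333), named because there were only 2. Olfr225 was at -5.66 and -5.61 with IR+Imatinib and -7.49 and -7.64 with IR+Su, but at -5.95 to -5.60 on the 4 arrays with Ly. It was well above background on only 2 of 4 Su arrays and 1 of 4 Imatinib arrays, so that its difference is partly taken against background. At an unadjusted p under 0.05 there were 2492 genes (12.3%), 3.22% of all genes higher and 9.06% lower with Su. With Ly, 0 genes passed (0%; lowest adjusted p 0.111), with 1745 genes (8.6%) at an unadjusted p under 0.05, 5.72% of all genes higher and 2.88% lower. The 2 differences themselves differed for 0 genes (0%; limma interaction, lowest adjusted p 0.0997), with 1583 genes (7.8%) at an unadjusted p under 0.05, 6.43% of all genes with a positive and 1.37% with a negative interaction.

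These counts turned on single arrays. Without IR+Imatinib 1 the fit called 592 genes in the comparison without Ly and 205 in the test of the difference. Without IR+Ly+Imatinib 2 it called 431 with Ly and 265 in the test of the difference. Each of these leaves 1 Imatinib array on its slide, assumed to vary like the other groups. Among genes with a symbol, the smallest p for the difference belonged to Olfr225, Atp2b3, Itga10, Slc2a2 and H1f6. H1f6, a histone of the testis, differed by -3.78 without Ly and 0.23 with Ly, and Itga10, an integrin of collagen, by -2.68 and 0.35. With normexp background correction the interaction went from 4.0 to 0.26 for H1f6 and from 3.03 to 0.15 for Itga10, and it reversed for Olfr225 and Slc2a2. H1f6 and Itga10 were each well above background on 2 of 4 Su arrays and 3 of 4 Imatinib arrays. Levels of these 5 genes were -7.85 to -3.03, and none passed.

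Among the lists, the median of the proliferation genes differed most by slide, 0.12 without Ly and -0.65 with Ly over 29 genes. The test of that difference had an unadjusted p under 0.05 for only 2 of 29, against 7.8% of all genes. With Ly, 0 of 29 were lower at an unadjusted p under 0.05, against 2.88% of all genes. Mki67, the marker of cycling cells, was at 0.16 and 0.31 with IR+Imatinib, 0.66 and 0.31 with IR+Su, 1.65 and 0.82 with IR+Ly+Imatinib, and 0.54 and 0.59 with IR+Ly+Su. IR+Ly+Imatinib 1 was the highest array, and without it the median of the list over both slides was -0.04 in place of -0.26. The p53 list had medians of -0.32 and -0.18, the matrix list -0.61 and -0.49, and the cardiac list 1.57 and 1.53.

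**Figure D4:**
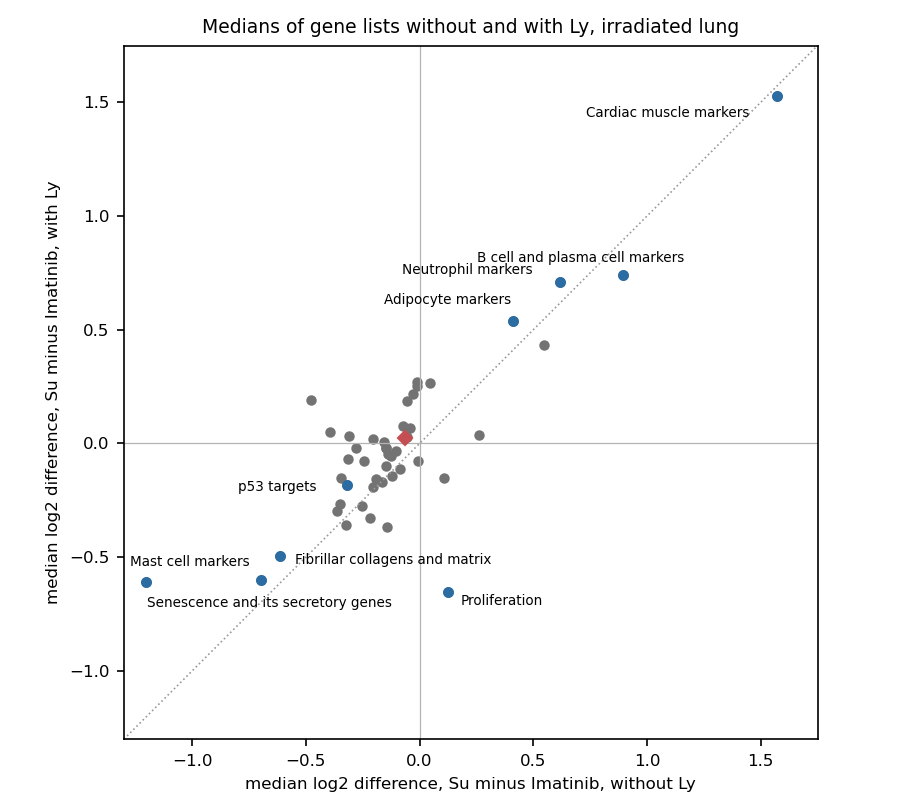
Median log2 difference, Su minus Imatinib, of the gene lists with 5 or more tested genes, without Ly (x axis, slide 5) and with Ly (y axis, slide 6), with some lists named, all genes as a red diamond and the line of equality dotted. Cardiac markers (1.57 and 1.53) lie near the line and proliferation genes (0.12 and -0.65) off it.

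The same agents were given without irradiation to 8 other lungs, on 2 further slides. The difference between Su and Imatinib differed between irradiated and unirradiated lung for 98 of 20342 genes (0.482%; limma interaction within slides), with 3207 (15.8%) at an unadjusted p under 0.05. For 94 of the 98 the difference was the larger one in unirradiated lung. Rab27a, a small GTPase of vesicle secretion, was at 0.69 and 0.79 with Imatinib and -1.47 and -1.48 with Su, and at 0.54 and 0.64 with Ly+Imatinib and -1.86 and -1.91 with Ly+Su. In irradiated lung it was at 0.49 to 1.14 on all 8 arrays, so that the interaction was 2.08 ± 0.13 (adjusted p 6.97e-05). Eml2, a protein of microtubules, had an interaction of 1.53 ± 0.14 (adjusted p 0.000466), with levels of 2.57 to 2.77 on the 4 unirradiated Su arrays and 3.86 to 4.40 on the unirradiated Imatinib arrays.

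The interactions of Nprl3 (0.83 ± 0.08, adjusted p 0.000614), D030028A08Rik (1.66 ± 0.16, adjusted p 0.000614) and Rasal2 (-1.3 ± 0.13, adjusted p 0.000969) also passed, though that of Rasal2 turned to 0.66 with normexp background correction. Pax5 differed by -2.12 in unirradiated lung and by 0.91 in irradiated lung, an interaction of 3.03 ± 0.35 (limma, adjusted p 0.00229). The B cell list had a median of -0.05 in unirradiated lung, so that Pax5 did not follow its list there. Pax5 and Lmnb1, a lamin of the nuclear envelope (1.77 ± 0.20, adjusted p 0.00225), were the 2 genes of any list among the 98.

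None of the 24 p53 targets passed the adjusted threshold for a difference between irradiated and unirradiated lung. For 15 of 24 the interaction had an unadjusted p under 0.05 and was negative, against 8.86% of all genes, and for 0 it was positive, against 6.91%. The median difference of the list was -0.26 in irradiated and 0.14 in unirradiated lung. Bax had an interaction of -0.42 ± 0.11 and Cdkn1a of -1.23 ± 0.29, with adjusted p of 0.111 and 0.0968, so that neither passed. Of the 16 B cell genes 9 had a positive interaction at that threshold. Of the 28 matrix genes 9 had a negative and 1 a positive one. The cardiac list had 1 of 13, positive, and its median was 1.58 in irradiated and 1.24 in unirradiated lung.

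**Figure D5:**
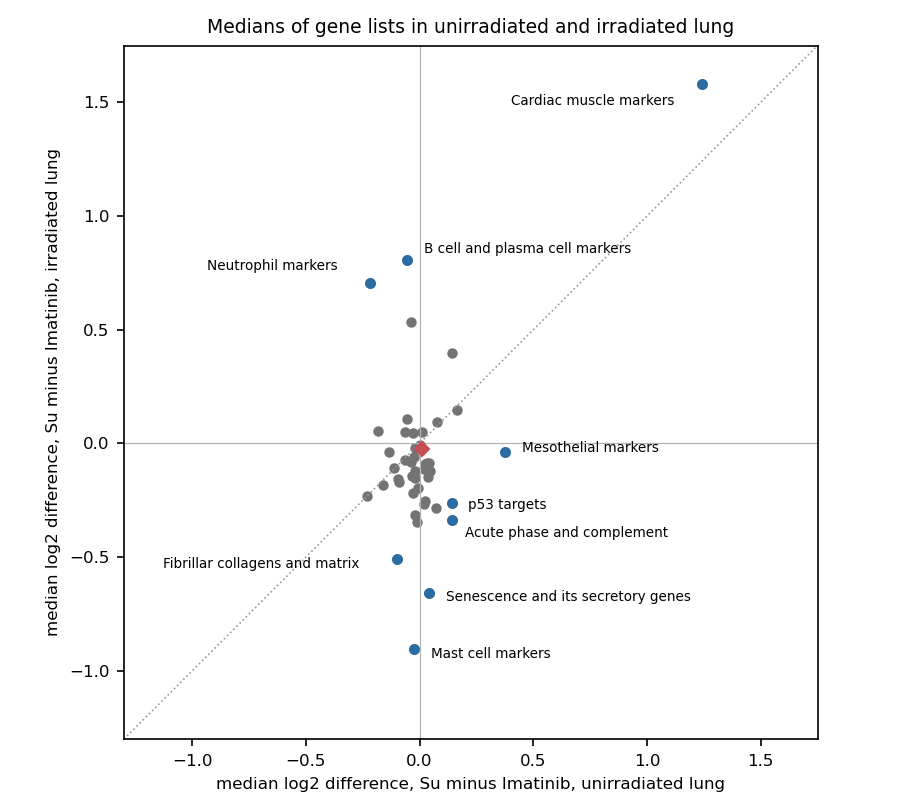
Median log2 difference, Su minus Imatinib, of the gene lists with 5 or more tested genes in unirradiated lung (x axis, 8 arrays) and irradiated lung (y axis, 8 arrays), with some lists named, all genes as a red diamond and the line of equality dotted. Cardiac markers are high in both (1.24 and 1.58), while B cell markers (-0.05 and 0.81) and p53 targets (0.14 and -0.26) lie off the line.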

How the data were processed

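Total RNA from shock-frozen lung was labelled with Cy3 and hybridised to Agilent single-colour arrays, per the labels. Per the file headers, Feature Extraction 9.1.3.1 made the deposited intensity values, background-subtracted and detrended, with no scaling between arrays. Here spots of a probe were averaged, 619 of 41174 probes were dropped for outlier spots, and arrays were scaled on the log2 scale to a common 75th percentile. The deposited series value table holds the same intensity, with a ratio to the array files of 0.995 to 1.005 after its constant, and served as an alternative. Probes were named through a RefSeq gene table (GRCm38.p6) by accession (22951), symbol (6659) or synonym (3109), and 8455 kept their deposited name. Each of 27401 genes was represented by its brightest probe over the series, and genes well above background on both arrays of at least 1 group were tested.

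Differences were fitted with limma 3.58.1 in R 4.3.3 (lmFit, eBayes) to the 8 arrays with a term for Ly, or with 1 mean per group for the comparisons without and with Ly and their difference, and to 16 arrays with slide as a term for irradiation. Tests were two-sided, with Benjamini-Hochberg adjustment over all genes tested. The fits were tested on simulated data. Replicate numbers were not taken to pair arrays: deviations from group means correlated at -0.12 to 0.201 between groups. With under 5 genes called, the rule names the 10 smallest p and the 5 smallest p of each interaction, both among genes with a symbol, and 25 panel genes. Other list members were named after their values were seen. Comparisons, members and the 48 lists were chosen with earlier results of these data known. No motif search was made, since it was planned for lists with called members only. Some genes are not reported here.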

Additional observations from a re-analysis of the deposited data

Results flagged for a closer look

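In 126 sets of 4 arrays of 1 agent (116 of them levels of genes named in the text), Dixon's criterion marked 7, or 5.56%, where chance gives about 1 in 20. Pdgfb on IR+Ly+Imatinib 1 was at -2.22 against 0.54 to 0.81 on the other Imatinib arrays. A530058N18Rik on IR+Ly+Imatinib 2 was at -6.55 against -7.79 to -7.69. On IR+Su 2, Pdgfra was at 1.19 against 1.27 on the other 3 Su arrays, and Flt1 at 1.99 against 2.31 to 2.37. Gpnmb on IR+Su 1 was at -1.31 against -1.11 to -1.09, Zmat3 on IR+Ly+Su 2 at 0.14 against -0.16 to -0.13, and Mcam, an adhesion molecule of pericytes, on IR+Ly+Su 1 at 0.72 against 0.45 to 0.48.

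The difference between Su and Imatinib differed between irradiated and unirradiated lung for 98 genes by limma's interaction test, with 76 positive and 22 negative. Among the named genes these were Rab27a (2.08), Eml2 (1.53), Nprl3 (0.83), D030028A08Rik (1.66), Rasal2 (-1.3, but 0.66 with normexp background correction) and Pax5 (3.03). Of the 98, 70 were well above background on all 16 arrays, and 25 had an unadjusted p under 0.05 between the agents in irradiated lung.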

How the results depend on the processing

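In the comparison over both slides, 0 genes passed under all alternatives run, those that leave out 1 array included, except that 12 group means over all 24 arrays called 7. At an unadjusted p under 0.05 the count of 2742 genes was 1662 with normexp background correction and 1618 without IR+Imatinib 2 and IR+Ly+Imatinib 1, an alternative chosen after seeing the data; leaving out 1 array gave 1659 to 3522. Genes not overlapping and lower with Su numbered 970 in place of 1744 under median scaling. Of 1272 values of named genes and their alternatives, 1253 kept direction and side of the threshold. The other 19 reversed, and for these the cause was not tested. No named gene passed in the main fit, so that these counts mainly record direction. Under normexp F2rl3 was at 0.28, Cyp1b1 at 0.054, Pdgfra at -0.0025, Kdr at -0.018 and Flt4 at 0.0079, and under median scaling Tgfb1 was at 0.00098. Leaving out 1 array at a time gave -0.24 to 0.11 for Cyp1b1, -0.030 to 0.16 for Pdgfra, -0.010 to 0.13 for Kdr, -0.11 to 0.041 for Flt1, -0.11 to 1.09 for Pdgfb, -0.14 to 0.018 for Tgfbr1 and -0.096 to 0.0057 for Tgfb1. Without both arrays named above, Pdgfra was at -0.13, Pdgfb at -0.047, Kit at 0.048, Kdr at -0.018 and Tgfbr1 at 0.045. Without Ly, 2 genes passed, 0 with median scaling, normexp, no filter, genes well above background on all arrays, or trended and robust variances, 1 with every probe, 16 with 24 arrays and 0 to 592 without 1 array. With Ly, 0 passed, 2 with quantile normalization and 0 to 431 without 1 array. In the test of their difference 0 passed, 1 with quantile normalization, 2 with 24 arrays and 0 to 265 without 1 array; under normexp Olfr225 reversed to -0.74 and Slc2a2 to -0.63. For irradiated against unirradiated lung 98 passed, 9 with normexp, 182 with every probe, 35 with 24 arrays and 53 to 364 without 1 array. The highest was without Ly+Su 1, and counts under 65 came without Su 2 (53), IR+Su 2 (54), IR+Su 1 (62) or IR+Ly+Su 2 (64). Normexp moved the median interaction of all genes from -0.03 to 0.25 and turned Rasal2 to 0.66.

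The replicate numbers were not taken to pair the arrays, though the labels do not settle this. With a replicate block the calls were 0 over both slides, 0 without Ly, 0 with Ly and 23 for irradiated against unirradiated lung. Of genes that reversed with normexp, Olfr225, Slc2a2 and F2rl3 were near background, while Rasal2, Cyp1b1, Pdgfra, Kdr and Flt4 were well above it on all arrays compared.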
